A study of Homo sapiens with 4 samples.

Results

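The protein synthesis factors described here are the genes for the eukaryotic translation initiation factors (eIF, symbols that begin with EIF1 to EIF6) and elongation factors (eEF, symbols that begin with EEF1 or EEF2). They were taken by symbol from the protein-coding rows of an RNA-seq table, and the 4 rows of the EIF2AK kinases, which phosphorylate eIF2 and are not themselves translation factors, were left out. The rule gave 62 rows of the 48162 listed, with 61 distinct symbols because EIF3L has 2 rows. RNA came from MDA-MB-231 cells, an established human breast cancer line, after 24 h with 10 µM MGH-CP1, a compound that reversibly blocks the self-palmitoylation of TEAD proteins, or with vehicle control. TEADs bind DNA and recruit the co-activators YAP and TAZ to their target genes. Each group held 2 poly(A)-selected libraries of the same unmodified line, and no other condition or line entered. Nothing states that the libraries of a group came from separate cultures, so p-values measure only the spread between these libraries, which may be technical. In bulk RNA a lower value cannot be told apart between fewer cells that make a transcript and less transcript in each cell.

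Translation of a capped mRNA starts when the 43S complex, a small ribosomal subunit that carries the eIF2, GTP and initiator tRNA ternary complex, eIF1, eIF1A, eIF3 and eIF5, is recruited by the cap-binding complex eIF4F (eIF4E, the eIF4A helicase and the eIF4G scaffold). The 4E-binding proteins hold eIF4E away from eIF4G when mTOR signalling is low, and eIF2B recharges eIF2 with GTP after each round. eIF5B joins the large subunit. Elongation then cycles through eEF1A, which delivers aminoacyl-tRNA, its exchange factor eEF1B, and eEF2, which moves the ribosome along the message. Most of these proteins are needed in every dividing cell, and eIF4E and EIF4EBP1 have been studied widely in breast cancer.

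The libraries held 17577930 to 25508824 fragments on the listed genes, with both MGH-CP1 libraries below both vehicle control libraries. Markers of the line were present in every library (VIM 259 to 281, CD44 198 to 221 and EGFR 34.9 to 49.7 FPKM), and ESR1 and PGR did not pass 0.0243 FPKM. EPCAM, which was listed among the markers to be low, was at 12.4 to 16.4 FPKM. The TEAD targets CYR61, CTGF and ANKRD1 were all lower after MGH-CP1, with log2 fold changes of -0.75, -0.66 and -0.66. ALB, a liver transcript, had 0, 0, 3 and 102 fragments, the last of these in MGH-CP1 replicate 2. The median change of the factors is therefore also given without that library.

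Of the 62 factors, 51 passed the expression filter (mean of at least 1 FPKM over the 4 libraries, where FPKM is the number of fragments scaled to gene length and to the fragments of the library). After MGH-CP1, 23 of these 51 factors were lower (45.1%), 3 were higher (5.88%) and 25 did not pass the test. Over all 12080 genes tested, 23.8% were called lower and 27.1% higher. Fold changes are log2 ratios of FPKM + 1, MGH-CP1 against vehicle control, with the standard error (SE) from limma over n = 2 libraries a group, and a gene was called at a Benjamini-Hochberg adjusted p under 0.05 over all genes tested. The median log2 fold change was -0.13 over the 51 factors and 0.01 over all genes tested, and the factors ranged from -0.56 (EIF3J) to 0.61 (EIF4A1). Both MGH-CP1 libraries lay below both vehicle control libraries for 33 of the 51 factors and above them for 9, against 37.4% and 39.8% of all genes tested. Without MGH-CP1 replicate 2, the median log2 fold change was -0.17 over the 51 factors and 0.02 over all genes tested.

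The changes were modest in size. Only EIF3J, EIF5B and EIF4EBP1 fell by 0.5 or more on the log2 scale, and their mean FPKM decreased by 33.1%, 31.4% and 30.0%. Of the 23 called lower, 19 were among the 36 tested factors with at least 1000 fragments in every library. The share called among all genes with that many fragments was not computed. At a mean of at least 5 FPKM, 23 of 48 factors were called lower and 2 higher. Of the 8439 genes at that level, 2564 were called lower and 2434 higher. With no sharing of variance between genes, limma called 0 factors, and 9 genes higher and 4 lower of the 12080, while 23 factors had an unadjusted p under 0.05.

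**Figure D1:**
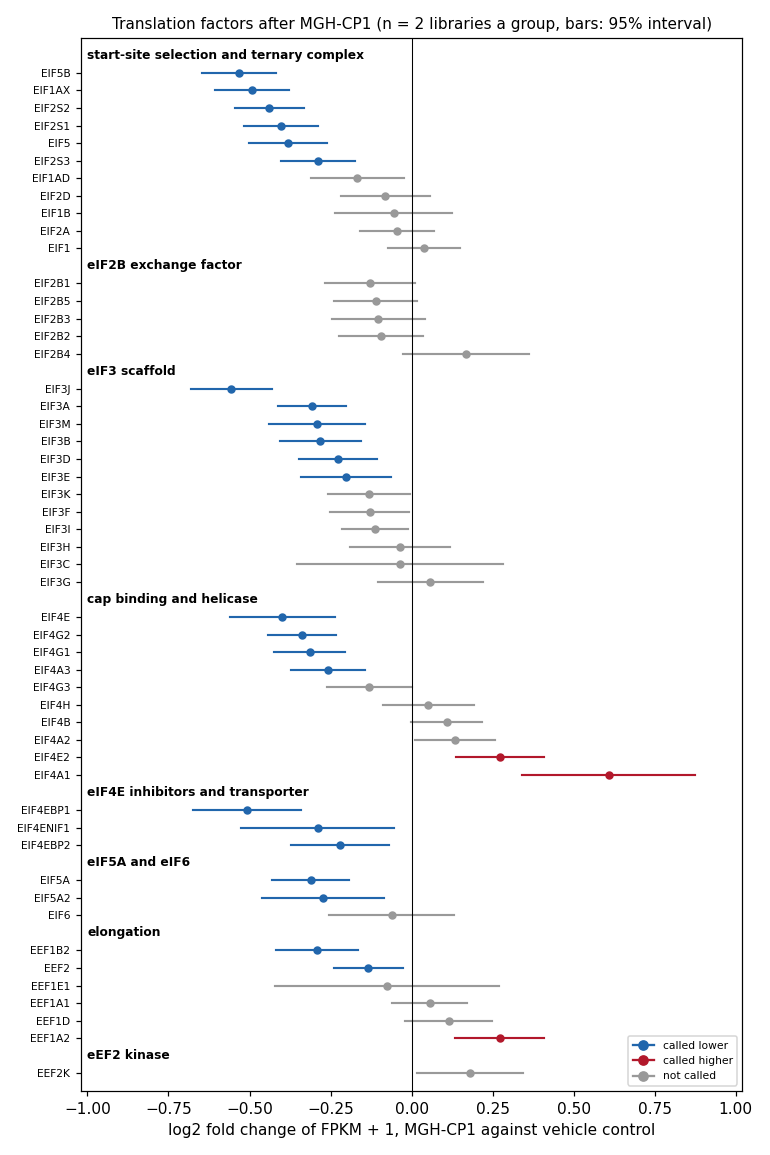
Log2 fold change of FPKM + 1 (horizontal axis, MGH-CP1 against vehicle control, n = 2 libraries a group) for the 51 factors tested, grouped by role. Points are estimates, bars are 95% intervals from limma and colours give the call, and the 23 factors called lower include EIF3J at -0.56, EIF5B at -0.53 and EIF4EBP1 at -0.51.

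The 13 factors grouped under start-site selection and the ternary complex include EIF5B, which acts in subunit joining. Of these, 11 were tested, 6 were lower, none was higher, and the median log2 fold change was -0.29. Over all genes tested, 23.8% were lower and 27.1% higher. Each role holds few factors, and its counts were not tested against those shares. All 3 subunits of eIF2, the GTPase that brings initiator tRNA, fell. EIF5B, EIF1AX and EIF5 fell with them, while EIF1 and EIF1B did not pass the test.

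EIF2S1 (eIF2α, the subunit whose phosphorylation by the eIF2 kinases limits initiation; chromosome 14, 67826714 to 67853233, plus strand, hg19) was at 46.8 and 45.3 FPKM in the vehicle control libraries and at 34.8 and 34.3 FPKM after MGH-CP1. EIF2S2 (eIF2β, the subunit that contacts eIF5 and eIF2B) was at 123 and 119 FPKM in vehicle control and at 87.9 and 89.7 FPKM after MGH-CP1. EIF2S3 (eIF2γ, the GTP-binding subunit) was at 97.3 and 92.2 FPKM, and at 76.7 and 78.1 FPKM. For each subunit both treated libraries were below both vehicle control libraries, as they were for 37.4% of all genes tested. The log2 fold changes were -0.40 ± 0.05 for EIF2S1 (adjusted p = 0.000380), -0.44 ± 0.05 for EIF2S2 (adjusted p = 0.000191) and -0.29 ± 0.05 for EIF2S3 (adjusted p = 0.00181). The paralogous row EIF2S3L had 4 to 7 fragments a library and was not tested.

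EIF5B, the GTPase of subunit joining (chromosome 2, 99953816 to 100016728, plus strand, hg19), was at 61.5 and 60.2 FPKM in vehicle control and at 40.9 and 42.6 FPKM after MGH-CP1, which is a change of -0.53 ± 0.05 (adjusted p = 0.000109). That was the smallest adjusted p among the factors. EIF1AX, which encodes the eIF1A that helps the 43S complex scan (chromosome X, 20142636 to 20159962, minus strand, hg19), stood at 56.8 and 56.5 FPKM against 39.1 and 40.9 FPKM, and fell by 0.49 ± 0.05 on the log2 scale (adjusted p = 0.000149). EIF5, the GTPase activator of eIF2, stood at 57.9 and 56.1 FPKM against 44.8 and 42.3 FPKM, and fell by 0.38 ± 0.05 on the log2 scale (adjusted p = 0.000633). In all 3 genes the vehicle control libraries lay close together and clear of the treated ones. The groups did not overlap in 77.2% of all genes tested. EIF1AY, the Y-linked copy, was under the filter.

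EIF1, which guards start-codon fidelity and had the highest mean FPKM of this role, was at 162 and 171 FPKM in vehicle control and 170 and 172 FPKM after MGH-CP1. Its groups overlapped, with a log2 fold change of 0.04 ± 0.05 (95% interval -0.07 to 0.15, adjusted p = 0.547). Its paralog EIF1B was at 30.5, 29.4, 26.5 and 31.3 FPKM in the same order, and the treated libraries lay on either side of the vehicle control libraries (log2 fold change -0.06, adjusted p = 0.581). EIF1AD, EIF2A and EIF2D had log2 fold changes of -0.17, -0.04 and -0.08 and were not called. EIF2A and EIF2D encode alternative initiator-tRNA carriers and are distinct from the subunits of eIF2.

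**Figure D2:**
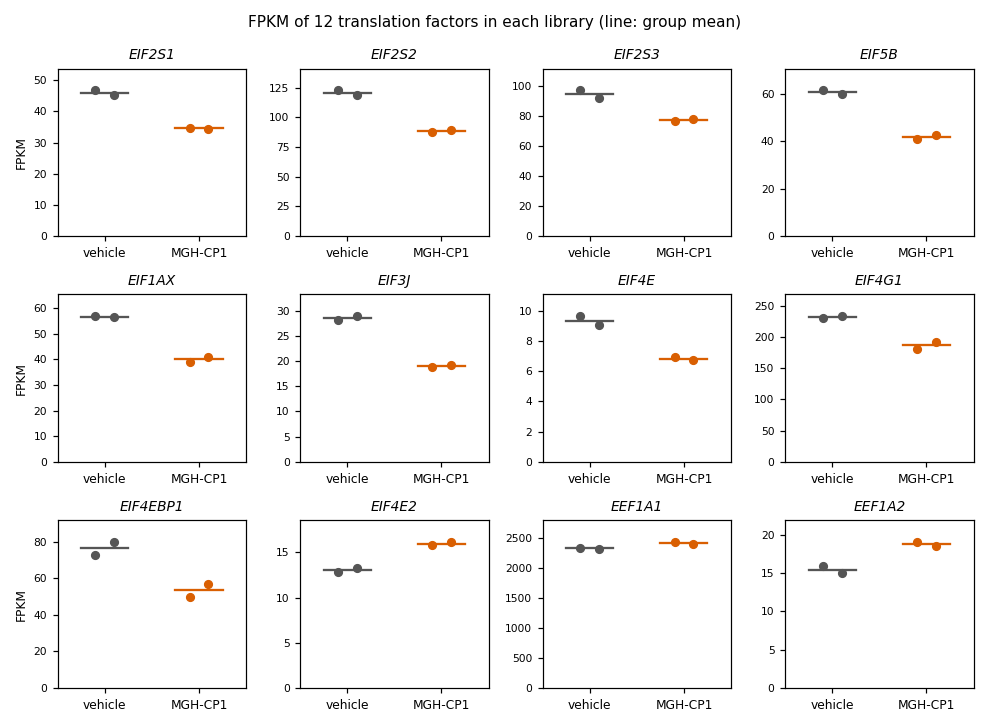
FPKM (vertical axis from 0) of 12 factors in each of the 4 libraries, vehicle control in grey and MGH-CP1 in orange, with a line at the group mean of n = 2. The eIF2 subunits, EIF5B, EIF1AX, EIF3J, EIF4E, EIF4G1 and EIF4EBP1 are lower in both treated libraries, and EIF4E2 and EEF1A2 are higher. EEF1A1 lies between 2324 and 2432 FPKM. Its log2 fold change was 0.06 here, and it was negative under quantile normalization alone (-0.59).

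None of the 5 subunits of eIF2B, the exchange factor that works on eIF2, was called, and the median log2 fold change was -0.10. EIF2B3, the most abundant, was at 28.5 and 27.3 FPKM in vehicle control and at 24.7 and 27.2 FPKM after MGH-CP1, for a log2 difference of -0.10 ± 0.06 (95% interval -0.25 to 0.04, adjusted p = 0.206). EIF2B1, EIF2B2 and EIF2B5 gave -0.13, -0.10 and -0.11, and EIF2B4 gave 0.17 from 5.48 and 6.32 FPKM in vehicle control and 6.82 and 6.67 FPKM after MGH-CP1. The groups did not overlap in these 5 genes, the treated libraries being below in 4 and above in EIF2B4, but the same lack of overlap held for 77.2% of all genes tested. Without MGH-CP1 replicate 1 the difference was -0.04 for EIF2B3 and -0.07 for EIF2B1, and without vehicle control replicate 1 it was -0.05 for EIF2B2 and 0.08 for EIF2B4. Whether the subunits of eIF2B and eIF2 differed in their response was not tested. The listed row of EIF2B5 spans that of EIF4G1 and of other genes on the same strand, and how fragments shared between rows were assigned is not given in the sources used here.

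For eIF3, the scaffold that binds the small subunit and bridges to eIF4G, 12 of 15 rows were tested. Of these, 6 were lower and none was higher, with a median log2 fold change of -0.17. The shares over all genes tested were 23.8% lower and 27.1% higher. EIF3J encodes a loosely bound subunit that promotes release of mRNA and subunit recycling (chromosome 15, 44829255 to 44855227, plus strand, hg19). It was at 28.0 and 28.9 FPKM in vehicle control and 18.8 and 19.3 FPKM after MGH-CP1, and its log2 fold change of -0.56 ± 0.05 (adjusted p = 0.000128) was the lowest of all factors. EIF3A and EIF3B, the core subunits on which the complex assembles, fell as well. EIF3A was at 126 and 128 FPKM against 100 and 104 FPKM (-0.31 ± 0.05, adjusted p = 0.000970). EIF3B changed by -0.28 on the log2 scale (adjusted p = 0.00329).

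EIF3M, an eIF3 subunit of the octamer core, was at 34.6 and 30.9 FPKM in vehicle control and at 26.3 and 26.7 FPKM after MGH-CP1 (log2 fold change -0.29 ± 0.06, adjusted p = 0.00612, or 0.0628 with no filter on low values). EIF3E, the most abundant eIF3 subunit by FPKM, was at 224 and 200 FPKM against 186 and 181 FPKM (-0.20 ± 0.06, adjusted p = 0.0229). EIF3D, a subunit able to bind the cap itself, gave -0.23 (adjusted p = 0.00784). All 3 had non-overlapping groups, as did 77.2% of all genes tested, but vehicle control replicate 1 stood above replicate 2 in each. The call of EIF3E was lost without vehicle control replicate 1 (-0.12, adjusted p = 0.0911), without MGH-CP1 replicate 1 (-0.22, adjusted p = 0.0722) and without MGH-CP1 replicate 2 (-0.19, adjusted p = 0.109), and that of EIF3D without MGH-CP1 replicate 2 (-0.19, adjusted p = 0.0581).

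The eIF3 subunits that did not pass the test had log2 fold changes from -0.13 (EIF3K and EIF3F) to 0.06 (EIF3G). EIF3I was at 188 and 185 FPKM in vehicle control and 172 and 172 FPKM after MGH-CP1, a difference of -0.11 with an adjusted p of 0.0615. EIF3C was at 2.60, 3.81, 3.06 and 3.06 FPKM, with 213 to 385 fragments a library, and its near-identical copy EIF3CL was at 0.736, 0.874, 0.538 and 0.606 FPKM. Both levels are uncertain, because fragments that match both copies cannot be placed. EIF3L was at 0.459 to 0.512 FPKM in the row with fragments and was listed at 0 in the other. These rows overlap each other on the same strand, and how shared fragments were assigned is not given, so the level of EIF3L is uncertain too.

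In the cap-binding and helicase role, 10 of 12 members were tested. Of these, 4 were lower, 2 were higher and 4 were not called, against 23.8% lower and 27.1% higher over all genes tested. The eIF4E paralogs did not share a direction. EIF4E, which binds the cap (chromosome 4, 99792835 to 99851788, minus strand, hg19), was at 9.63 and 9.04 FPKM in vehicle control and 6.92 and 6.75 FPKM after MGH-CP1. EIF4E2, which encodes the cap-binding repressor 4EHP, was at 12.9 and 13.2 FPKM against 15.8 and 16.1 FPKM. EIF4E3 stayed under the filter at 0.842 and 0.777 FPKM against 0.681 and 0.715 FPKM. EIF4E fell by 0.40 ± 0.07 on the log2 scale (adjusted p = 0.00220), and EIF4E2 rose by 0.27 ± 0.06 (adjusted p = 0.00565). The groups of each did not overlap, which held for 77.2% of all genes tested. EIF4E2 had more FPKM than EIF4E in every library, and the distance between them in FPKM was wider after MGH-CP1. FPKM divides by the listed lengths, 11523 bases for EIF4E and 3525 bases for EIF4E2. By fragments EIF4E was above EIF4E2 in every library, at 2824, 2657, 1436 and 1367 against 1155, 1191, 1004 and 1000. Which transcript is the more abundant is therefore not settled here.

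The eIF4G family holds the scaffolds of eIF4F and their relatives. EIF4G1, the main scaffold (chromosome 3, 184032283 to 184053146, plus strand, hg19), was at 231 and 233 FPKM in vehicle control and at 181 and 191 FPKM after MGH-CP1 (-0.31 ± 0.05, adjusted p = 0.00103). EIF4G2, which encodes the cap-independent initiation factor DAP5, was at 180 and 174 FPKM against 139 and 141 FPKM (-0.34 ± 0.05, adjusted p = 0.000590). EIF4G3 was at 31.9 and 29.7 FPKM against 28.3 and 27.8 FPKM, a log2 fold change of -0.13 ± 0.06 that did not pass the test (95% interval -0.26 to 0.00, adjusted p = 0.0883). Voom called it lower (adjusted p = 0.0394), and it was at -0.18 (adjusted p = 0.0476) without vehicle control replicate 2 and at -0.08 (adjusted p = 0.375) without vehicle control replicate 1. In all 3 genes both treated libraries were below both vehicle control libraries, as they were for 37.4% of all genes tested.

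The eIF4A helicases unwind the 5′ leader of the mRNA. EIF4A2 was at 49.1 and 50.4 FPKM in vehicle control and 56.7 and 52.9 FPKM after MGH-CP1, and its log2 fold change of 0.14 ± 0.05 was not called (adjusted p = 0.0657), although quantile normalization (adjusted p = 0.0220) and voom (adjusted p = 0.0242) called it higher. EIF4A3, a core member of the exon junction complex despite its name, had a log2 fold change of -0.26 (adjusted p = 0.00324). EIF4A1, ordinarily the main helicase of eIF4F, was at 1.19 and 1.47 FPKM in vehicle control and 2.44 and 2.66 FPKM after MGH-CP1, from 53, 66, 77 and 82 fragments. It was called higher (0.61 ± 0.12, adjusted p = 0.00315), and with a voom fit on recovered fragments the difference was 0.94. Its row overlaps the read-through row SENP3-EIF4A1 on the same strand, which had 1 to 4 fragments, and the handling of fragments shared between such rows is not given, so the level and the change of EIF4A1 are uncertain.

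EIF4H and EIF4B, the proteins that stimulate eIF4A, did not pass the test. EIF4H was at 198 and 218 FPKM in vehicle control and 209 and 222 FPKM after MGH-CP1, with overlapping groups (0.05 ± 0.06, adjusted p = 0.505). EIF4B gave 0.11 (adjusted p = 0.0954).

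**Figure D3:**
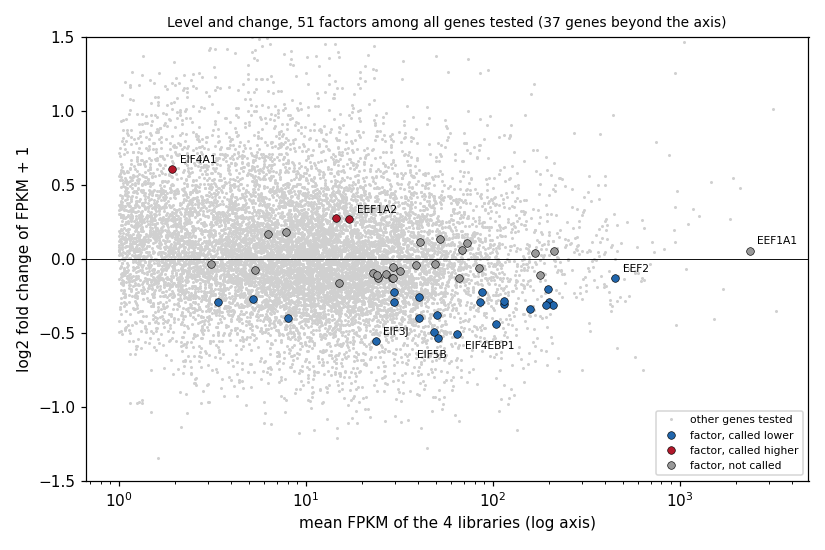
Mean FPKM of the 4 libraries (horizontal axis, logarithmic) against the log2 fold change of FPKM + 1 (vertical axis) for the 51 factors among the 12080 genes tested, of which 37 lie beyond the axis. Factors called lower lie between EIF4ENIF1 at a mean of 3.40 FPKM and EEF2 at 454 FPKM. EIF4A1 lies at the low end and EEF1A1 at the high end at 0.06 (negative under quantile normalization alone, at -0.59).

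The 250 bases before each listed transcription start were read from RefSeq for 49 of the 61 symbols (build GRCh38.p14, used for these sequences alone and not mixed with the hg19 coordinates of the expression table). A symbol with several starts was counted if any of its windows held the motif. EEF1A2, EEF1D, EEF1E1-MUTED, EIF2S2, EIF2S3L, EIF3A, EIF3CL, EIF3E, EIF3G, EIF3H, EIF3L and EIF4EBP1 had no entry. The canonical E-box CACGTG is a palindrome that reads the same on both strands and is bound by MYC and related factors. It was present in 12 of the 49 (24.5%), against 7.73% of all 27305 symbols. Those symbols were not limited to genes expressed here, so the sets are unlike. Among factors called lower it was present in 4 of 19 (21.1%: EIF4A3, EIF4E, EIF4G1 and EIF5A2). Among the others, which include untested rows such as EIF4EBP3, it was present in 8 of 30 (26.7%). The TEAD hexamer GGAATG, or CATTCC on the other strand, was present in 6 of 49 factors (12.2%) against 14.3% of all symbols. It was present in 3 of the 19 called lower (15.8%: EEF1B2, EIF3M and EIF4G1) and in 3 of the 30 others (10%: EIF2B4, EIF4E3 and EIF4G3). These matches are letters in a window and no measured binding, and the shares were not tested.

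The promoters of EIF4E and EIF4G1 are shown because both genes fell, encode partners in eIF4F and hold 2 E-boxes each, and that of EIF3M because it fell and holds the TEAD hexamer. Capitals mark the E-box in the first pair and the hexamer in EIF3M. The EIF4G1 window shown does not hold the hexamer, which lay in another of its windows. Each is written 5′ to 3′ on the strand of the gene, and the last base is the base before the start. In EIF4E the E-boxes begin 225 and 72 bases before the start, in EIF4G1 (the first of 3 listed starts) 144 and 67 bases before it, and in EIF3M the hexamer begins 114 bases before it.
EIF4E, chr4:98929134-98929383, minus strand: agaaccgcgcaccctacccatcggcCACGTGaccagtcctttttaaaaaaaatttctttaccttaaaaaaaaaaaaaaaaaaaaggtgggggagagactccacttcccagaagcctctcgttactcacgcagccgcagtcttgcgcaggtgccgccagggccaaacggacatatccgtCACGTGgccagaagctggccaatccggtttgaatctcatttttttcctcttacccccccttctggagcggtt
EIF4G1, chr3:184314356-184314605, plus strand: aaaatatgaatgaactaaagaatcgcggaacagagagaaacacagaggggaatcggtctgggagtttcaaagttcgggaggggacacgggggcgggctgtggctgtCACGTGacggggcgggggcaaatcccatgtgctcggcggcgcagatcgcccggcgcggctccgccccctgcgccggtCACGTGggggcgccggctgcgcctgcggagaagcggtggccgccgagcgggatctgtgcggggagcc
EIF3M, chr11:32583581-32583830, plus strand: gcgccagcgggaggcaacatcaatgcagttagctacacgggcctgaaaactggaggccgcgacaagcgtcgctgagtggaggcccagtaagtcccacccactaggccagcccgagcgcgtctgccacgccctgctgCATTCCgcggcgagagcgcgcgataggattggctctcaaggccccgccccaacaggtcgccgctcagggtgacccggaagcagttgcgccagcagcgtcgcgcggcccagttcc

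All 3 tested genes that encode eIF4E partners other than the scaffolds fell, with a median log2 fold change of -0.29. Of all genes tested, 23.8% were called lower. EIF4EBP1 (4E-BP1, the inhibitor that mTORC1 phosphorylates) was at 72.8 and 79.7 FPKM in vehicle control and at 49.9 and 56.8 FPKM after MGH-CP1, for a log2 difference of -0.51 ± 0.07 (adjusted p = 0.000757). Its replicates differed more than those of EIF5B, but the lowest vehicle control value was above the highest treated value. EIF4EBP2 was at 32.6 and 31.5 FPKM against 25.8 and 28.9 FPKM (-0.22 ± 0.07, adjusted p = 0.0224), and EIF4ENIF1 (4E-T, which carries eIF4E into the nucleus and to processing bodies) was at 3.75 and 3.91 FPKM against 3.25 and 2.68 FPKM (-0.29 ± 0.10, adjusted p = 0.0442). Both calls rested on particular libraries. EIF4EBP2 was at -0.14 (adjusted p = 0.146) without MGH-CP1 replicate 1 and at -0.20 (adjusted p = 0.0680) without vehicle control replicate 1. EIF4ENIF1 was at -0.19 (adjusted p = 0.206) without MGH-CP1 replicate 2, at -0.31 (adjusted p = 0.0994) without vehicle control replicate 1 and at -0.27 (adjusted p = 0.150) without vehicle control replicate 2. EIF4EBP3 had 0 to 4 fragments a library.

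EIF5A encodes the hypusine-bearing factor that relieves stalls at proline runs and aids termination. It was at 207 and 219 FPKM in vehicle control and 167 and 176 FPKM after MGH-CP1, and fell by 0.31 ± 0.05 on the log2 scale (adjusted p = 0.00160). EIF5A2, its paralog, lay at 5.998 and 5.60 FPKM against 4.46 and 4.79 FPKM (-0.27 ± 0.08, adjusted p = 0.0237). The groups of both were apart, although EIF5A2 was not called without vehicle control replicate 1 (-0.23, adjusted p = 0.130) or without MGH-CP1 replicate 1 (-0.23, adjusted p = 0.110). EIF6, which keeps the large subunit from joining too early, was at 77.9, 95.04, 82.2 and 82.5 FPKM and its groups overlapped (-0.06, adjusted p = 0.563). The difference for EIF6 turned on the vehicle control libraries, with -0.20 (adjusted p = 0.0142) without replicate 1 and 0.08 (adjusted p = 0.274) without replicate 2.

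Among the genes grouped by symbol under elongation, 6 of 7 were tested. Of these, 2 were lower, 1 was higher and 3 were not called, against 23.8% lower and 27.1% higher over all genes tested. EEF1A1, which delivers aminoacyl-tRNA (chromosome 6, 74225473 to 74233520, minus strand, hg19), was the most abundant factor at 2328 and 2324 FPKM in vehicle control and 2432 and 2403 FPKM after MGH-CP1. Both treated libraries were above both vehicle control libraries, but the log2 fold change of 0.06 ± 0.05 did not pass the test (95% interval -0.06 to 0.17, adjusted p = 0.387). Under quantile normalization of the libraries the same gene was at -0.59 (adjusted p = 4.14e-05). Median-ratio scaling gave 0.04 and voom gave 0.06, and quantile normalization was the only alternative that turned its direction. EEF1A2, the isoform usual in muscle and neurons, was at 15.9 and 15.0 FPKM against 19.0 and 18.6 FPKM, and rose by 0.27 ± 0.06 on the log2 scale (adjusted p = 0.00627).

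EEF1B2, the exchange subunit that recharges eEF1A, was at 212 and 231 FPKM in vehicle control and 184 and 177 FPKM after MGH-CP1 (log2 fold change -0.29 ± 0.05, adjusted p = 0.00295, or 0.0515 with no filter on low values). EEF1D, another subunit of that exchange complex, gave 0.11 (adjusted p = 0.134), and EEF1E1 gave -0.08 (adjusted p = 0.695). EEF2, the translocase, was at 467 and 482 FPKM against 428 and 438 FPKM, with no overlap between the groups (-0.13 ± 0.05, adjusted p = 0.0431). Its change was the smallest of the called factors, and its adjusted p was 0.104 to 0.212 without vehicle control replicate 2, MGH-CP1 replicate 1 or MGH-CP1 replicate 2. EEF2K, the kinase that inhibits eEF2, was at 7.07 and 7.44 FPKM in vehicle control and 8.13 and 8.57 FPKM after MGH-CP1, above it in both libraries but not called (0.18 ± 0.07, adjusted p = 0.0664).

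As a share of all fragments, the 62 factors took up 2.27% in both vehicle control libraries and 2.14% and 2.15% after MGH-CP1. The means were 2.27% ± 0.000168 and 2.15% ± 0.00699 (SD, n = 2), and the exact permutation test gave p = 0.333, the smallest that 2 libraries against 2 allow (two-sided). EEF1A1 alone made up 1.03% and 1.03% of the fragments in vehicle control and 1.08% and 1.07% after MGH-CP1. Without it the other factors took up 1.24% and 1.24% against 1.06% and 1.08%, a difference of -0.165 percentage points (exact permutation p = 0.333).

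Factor genes often have processed pseudogenes and overlapping neighbours. The 104 pseudogene rows named after the factors held 1168 to 1927 fragments a library in all, most of them in 38 rows named for EEF1A1 (1076 to 1725), against 187562 to 263226 fragments on EEF1A1 itself. Among the 12 tested factors with no listed gene overlapping on either strand, 8 were lower (66.7%) and 1 was higher (8.33%). Among the 38 with none on the same strand, 17 were lower (44.7%) and 2 were higher (5.26%). Over all genes tested, whether overlapped or not, 23.8% were lower and 27.1% higher. The shares among all genes free of such overlaps were not computed, so an effect of overlapping rows was not tested.

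The 11 rows under the filter are EIF3L (2 rows), EIF4E3, EIF4E1B, EIF2S3L, EIF1AY, EIF3CL, EIF4EBP3, EIF5AL1, EEF1G and EEF1E1-MUTED. EEF1G, a structural subunit of the eEF1 complex that proliferating cells use, was listed at 0 in all 4 libraries, where its row overlaps a row named MIR3654 with 19 to 36 fragments. EIF4E1B and EEF1E1-MUTED were also listed at 0 throughout. An exact 0 for a gene of such general use may be no estimate of its level, and nothing is drawn from it.

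Other genes of protein synthesis were read from a list of 47, of which 45 were found by symbol and 44 were tested. Of these, 17 were lower (38.6%, against 23.8% of all genes tested), 7 were higher (15.9%, against 27.1%) and 20 were not called, with a median log2 fold change of -0.12. The groups within the list are small, and their shares are given as counts only. The termination and recycling genes had 3 of 6 lower. ABCE1, the ATPase that splits ribosomes after termination, was at 55.7 and 51.2 FPKM in vehicle control and 32.9 and 33.0 FPKM after MGH-CP1, and fell by 0.68 ± 0.06 on the log2 scale (adjusted p = 6.71e-05). ETF1 (eRF1, which reads stop codons) changed by -0.42 (adjusted p = 0.000339) and GSPT1 (eRF3a, its GTPase partner) by -0.36 (adjusted p = 0.000983). The poly(A)-binding proteins PABPC1 (493 and 471 against 372 and 382 FPKM, -0.35 ± 0.05, adjusted p = 0.000635) and PABPC4 (-0.51, adjusted p = 0.000176) were lower too, whereas their partners PAIP1 and PAIP2 did not pass the test.

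The genes that control the factors did not move in a single direction. Of 11 genes of mTOR signalling and cap-binding control, 5 were higher and 3 were lower. Of all genes tested, 27.1% were higher and 23.8% lower. MKNK2, a kinase that phosphorylates eIF4E on the eIF4G scaffold, was at 28.8 and 31.4 FPKM in vehicle control and 45.4 and 44.1 FPKM after MGH-CP1 (0.56 ± 0.06, adjusted p = 0.000180), and MKNK1 rose by 0.44 (adjusted p = 0.00114). TSC2 and TSC1, the brakes on mTORC1, rose by 0.34 (adjusted p = 0.00149) and 0.23 (adjusted p = 0.0235), and PDCD4, which inhibits eIF4A, by 0.19 (adjusted p = 0.0461). MTOR was at 15.0 and 14.3 FPKM against 9.51 and 10.46 FPKM and fell by 0.51 ± 0.07 on the log2 scale (adjusted p = 0.000589), and LARP1 and RHEB fell by 0.26 and 0.22. Over the whole list, 7 genes were higher with all libraries, against 4 without vehicle control replicate 1, 4 without vehicle control replicate 2 and 3 without MGH-CP1 replicate 1.

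Of the eIF2 kinases, EIF2AK4 (GCN2, the sensor of uncharged tRNA) changed by -0.32 (adjusted p = 0.00144) and EIF2AK2 (PKR, the sensor of double-stranded RNA) by -0.20 (adjusted p = 0.0208), and EIF2AK1, EIF2AK3 and both PPP1R15 phosphatase subunits were not called. DOHH, the hydroxylase that completes hypusine on eIF5A, changed by -0.38 (adjusted p = 0.00542), while DHPS, which starts that modification, gave no call. DPH2, an enzyme of diphthamide synthesis on eEF2, changed by -0.43 (adjusted p = 0.00277). The reinitiation factor DENR changed by -0.19 (adjusted p = 0.0122) and its partner MCTS1 was not called. Among 9 mitochondrial factors 4 were lower (GFM1 -0.41, MTIF2 -0.36, MRRF -0.28 and TUFM -0.20) and 2 were higher (MTRF1 0.31 and MTIF3 0.30). The shares over all genes tested were 23.8% and 27.1%.

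**Figure D4:**
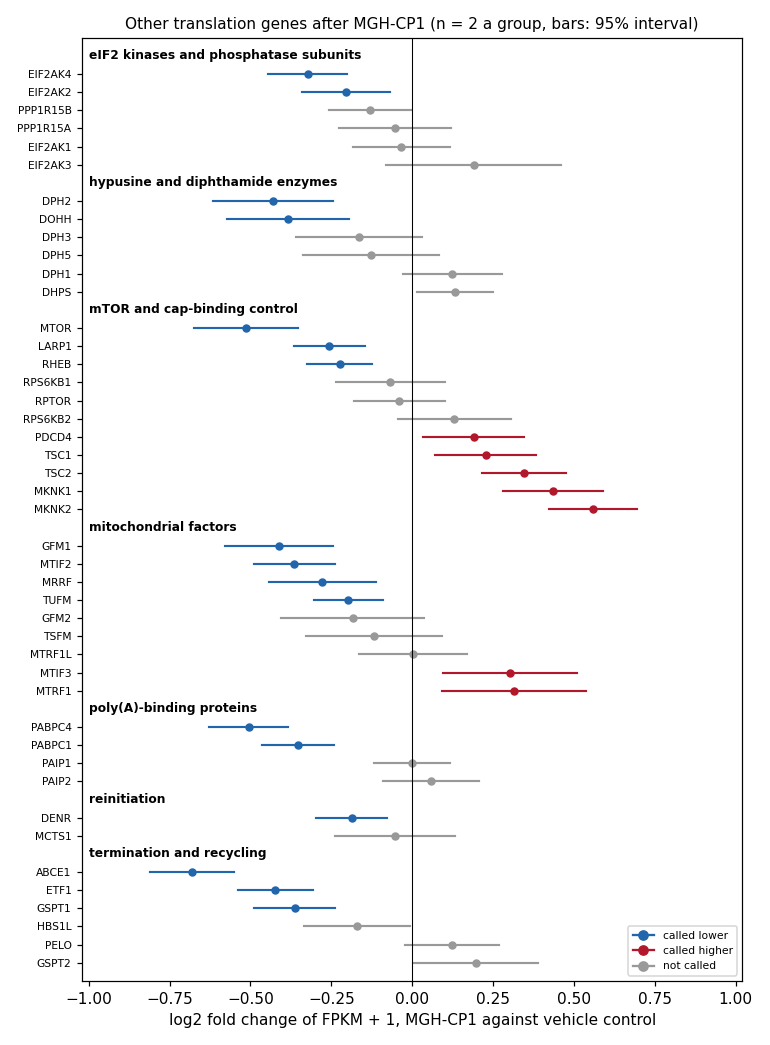
Log2 fold change of FPKM + 1 (horizontal axis, MGH-CP1 against vehicle control, n = 2 libraries a group) for the 44 other translation genes tested, grouped by role, with 95% intervals from limma as bars and the call as colour. ABCE1 at -0.68 and MTOR at -0.51 lie at the low end and MKNK2 at 0.56 at the high end. Of the 11 genes of mTOR and cap-binding control, 5 were called higher and 3 lower.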

How the data were processed

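RNA-seq was run on 4 libraries of MDA-MB-231 cells, 2 with vehicle control and 2 with MGH-CP1. The sample labels give the dose in µM, whereas the methods text writes the same number in mM. The authors deposited a table of FPKM in which each of 48162 genes has a symbol, a position and a length. The submitters' processing notes name hg19, STAR and CASAVA 1.8. The counting tool, strand setting and treatment of shared fragments are not given in the sources used here. Columns named for DMSO were matched to the control samples by condition and number. FPKM times length, divided by the value of 1 fragment in that library, was whole within 0.001 for 100% of values, and these fragments sum to 25455533 and 25508824 in vehicle control and 17997221 and 17577930 in MGH-CP1, so 1 FPKM on 1 kilobase is 17.6 to 25.5 fragments.

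Values were taken as log2(FPKM + 1) for the 12080 genes with a mean of at least 1 FPKM. The main test was limma 3.58.1 under R 4.3.3 (lmFit, then eBayes with trend, two-sided); p-values were adjusted by Benjamini-Hochberg across the 12080 genes and called under 0.05. The pipeline was run on simulated counts in which only a small part of the genes changed. That setting is unlike these data, so the run does not measure the error of the calls made here. Named with full values were called factors whose groups did not overlap (up to 12 with the largest rise and 16 with the largest fall), the most abundant factor of each role and paralog pairs. The factors, roles and lists were chosen with earlier results of these data known. Alternatives covered the pseudocount, the filter, scaling, the variance model, the replicate number and each library in turn. The deviations of same-numbered libraries from their group means correlated at r = 0.08 over genes, so the numbers were not taken to pair the samples.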

Additional observations from a re-analysis of the deposited data

How the results depend on the processing

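Of the 26 factors called, 18 were called under each of the 14 alternatives that tested them, but for the fit with no shared variance. EIF4A1 is among the 18 and was not tested at a mean of at least 5 FPKM. None of the 26 changed direction in any alternative. Without shared variance no factor was called higher or lower (0 and 0), nor any of the other translation genes (0 and 0), although 23 factors had an unadjusted p under 0.05; the smallest adjusted p was 0.0593. With no filter, 24878 genes were tested and the variance trend was fitted over all of them. There 15 of 58 factors were lower and 3 other translation genes were higher, against 1844 lower and 2280 higher of all genes. EIF3D, EIF3E, EIF3M, EIF4EBP2, EIF4ENIF1, EIF5A2, EEF1B2 and EEF2 lost their calls (adjusted p 0.0515 to 0.166). The cause was not tested. Voom on recovered fragments gave 5 factors higher, with either library size, EIF4A2 and EEF2K being added. Leaving out a library gave 19 to 23 factors lower, 3 higher and 3 to 6 other translation genes higher. With the replicate block, which is a fit with the replicate number as a term, 3 factors were higher and 24 lower: EIF3K was gained and no call was lost.

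The factors whose direction turned had not been called. Quantile normalization gave -0.0139 for EIF4H, 0.00805 for EIF3H and -0.59 for EEF1A1 (log2 fold change), and the cause was not tested. Leaving out a library gave -0.0203 to 0.124 for EIF4H, -0.245 to 0.174 for EIF3C, -0.0338 to 0.150 for EIF3G, -0.132 to 0.0585 for EIF3H, -0.204 to 0.0801 for EIF6, -0.322 to 0.170 for EEF1E1, -0.00328 to 0.0776 for EIF1 and -0.173 to 0.0622 for EIF1B. Fragment numbers were lowest among the tested factors for EIF4A1 (53 to 82 a library).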
